A study of Cucumis melo with 24 samples.

Results

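Ripening flesh from wild-type (WT) melon (Cucumis melo) 35 days after pollination (DAP) was set against WT flesh 10 days younger, at 25 DAP. The comparison used 6 RNA-seq libraries, 3 of WT flesh at 35 DAP and 3 of WT flesh at 25 DAP, out of 24 in the series, which also holds WT flesh at 15 and 45 DAP and the cmnac-nor mutant at all 4 ages. The cmnac-nor line carries a mutation of CmNAC-NOR, a NAC-domain transcription factor gene whose tomato relative regulates ripening. Both WT groups carry no transgene or treatment that the labels name, and the labels give no variety, growing site or fruit stage beyond age. Of 29980 genes listed, the 17658 with at least 1 TPM (a length-corrected share of the library's transcripts) in 3 or more of the 24 libraries were tested.

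In melons of the climacteric type, ethylene, made from 1-aminocyclopropane-1-carboxylate (ACC) by ACC oxidase, sets off much of ripening. The labels do not say whether this melon is of that type. During ripening the flesh stores sucrose, makes carotenoids, softens as wall polysaccharides are cut and loosened, and forms volatile esters that give the aroma. NAC, MADS-box and ethylene-responsive factors are among the regulators known from fleshy fruits.

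Changes are differences of log2(TPM + 1), WT 35 DAP minus WT 25 DAP, with their standard error (SE), and a gene is said to have risen or fallen where the limma test across all genes gave a Benjamini-Hochberg adjusted p under 0.05. This scale understates the change of low genes. The spread of a gene was estimated over all 24 libraries, so a gene that scatters in the mutant can carry a large SE here. Whether the libraries of an age are from different fruits or plants is not stated in the labels. The p-values therefore measure only the spread between samples, which may be technical. The depth of the libraries is unknown, because TPM keep no read count.

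The 6 libraries summed to between 942391 and 952888 TPM with 13820 to 14549 genes reaching 1 TPM. Across tested genes, the 3 libraries at 35 DAP correlated at 0.949 to 0.979, those at 25 DAP at 0.977 to 0.98, and libraries of different age at 0.904 to 0.928. Library 2 at 35 DAP stood a little apart from its group, with correlations of 0.949 and 0.962 against 0.979 between the other two. The 100 most abundant genes took 25.7% to 31.0% of the TPM at 35 DAP and 31.1% to 33.2% at 25 DAP. Transcripts of benzyl alcohol O-benzoyltransferase and ACC oxidase 1, both typical of ripening melon flesh, were among the 5 most abundant at each age.

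Between 25 and 35 DAP the transcriptome of WT flesh changed broadly, while the libraries of the ages overlapped in 4 of the most abundant transcripts, among them those of the O-benzoyltransferase and ACC oxidase 1. In all, 4385 genes rose (24.8% of those tested) and 2488 fell (14.1%), together 38.9%. Of these, 1274 rose (7.21%) and 1093 fell (6.19%) by 2-fold or more on the log2(TPM + 1) scale. The split depended on the scaling between libraries. Without further scaling of the TPM the median log2 change of all tested genes was 0.10. Median-of-ratios scaling brought that shift to 0.00, with 3140 genes rising and 3709 falling, and quantile normalization brought it to 0.02, with 3300 rising and 2938 falling. Without regard to the test, in 52.8% of tested genes the 3 libraries of 35 DAP did not overlap those of 25 DAP.

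**Figure D1:**
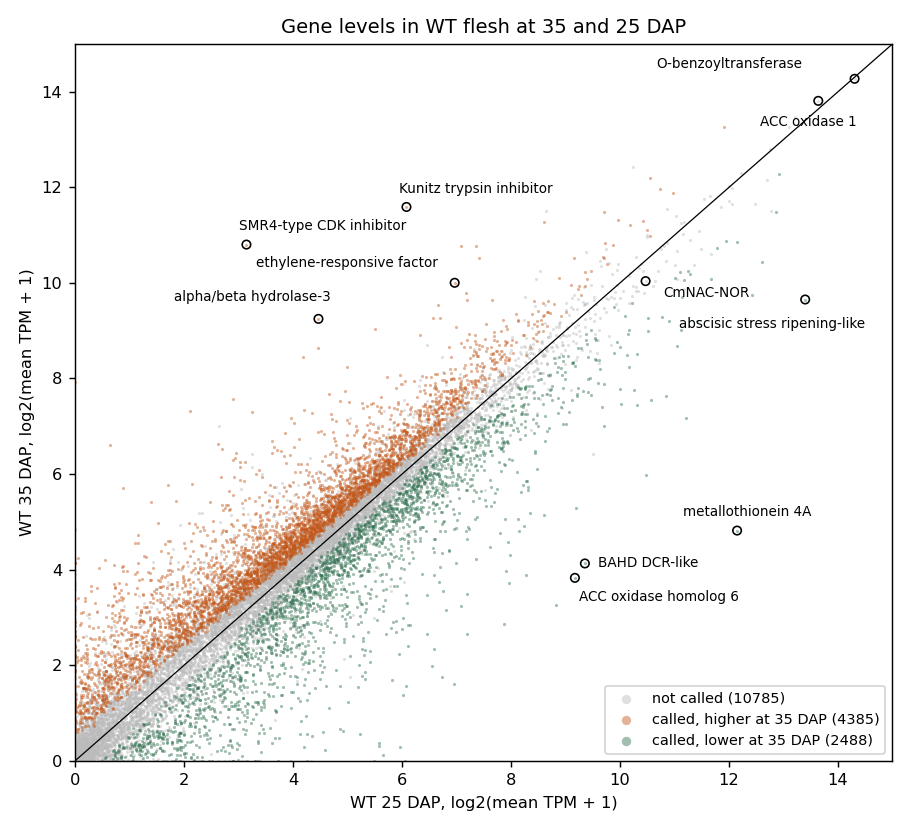
Mean level of each tested gene in WT flesh at 35 DAP (vertical axis) against 25 DAP (horizontal axis), both as log2(mean TPM + 1), with genes coloured by the limma call and the diagonal marking equal levels. The O-benzoyltransferase, ACC oxidase 1 and CmNAC-NOR lie near the diagonal, whereas the SMR4-type inhibitor lies far above it and metallothionein 4A far below.

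Several abundant or well-known ripening genes did not pass the test. Benzyl alcohol O-benzoyltransferase (MELO3C024771.2), of the acyltransferase family that makes volatile esters, was at 20591, 17676 and 21046 TPM at 35 DAP and 19979.5, 20021 and 20723 TPM at 25 DAP (a log2 change of -0.04, SE 0.97, limma adjusted p = 1.0). ACC oxidase 1 (MELO3C014437.2), the enzyme that turns ACC into ethylene, had 18087, 9217 and 15771 TPM at 35 DAP and 14012, 10359 and 13889 TPM at 25 DAP (0.13, SE 0.60, adjusted p = 0.93). For both genes the libraries of each age overlapped. A branched-chain-amino-acid aminotransferase (MELO3C010776.2), which acts on amino acids that serve as precursors of volatiles, was at 12242, 8509 and 13447 TPM at 35 DAP and 10594, 8341 and 9463 TPM at 25 DAP. Its log2 change was 0.25 (SE 0.79, adjusted p = 0.879). Pyruvate decarboxylase (MELO3C009145.2), which supplies acetaldehyde and was chosen after its values were seen, was at 3641, 3487 and 3774 TPM against 3428, 3007 and 3172 TPM (0.18, SE 0.47, adjusted p = 0.834). CmNAC-NOR itself (MELO3C016540.2, which the table describes only as a NAC domain protein) had 1063, 798 and 1289.6 TPM at 35 DAP and 1392, 1396 and 1463 TPM at 25 DAP, without overlap, and its change of -0.46 (SE 0.52, adjusted p = 0.547) did not pass the test. A second O-benzoyltransferase (MELO3C024766.2) changed by -0.42 (SE 0.82, adjusted p = 0.762) and a beta-galactosidase (MELO3C015470.2), a wall enzyme, by -0.14 (SE 0.29, adjusted p = 0.775), neither past the test.

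Among the 5 most abundant genes at each age, 4 were the same. These were the O-benzoyltransferase, ACC oxidase 1, the aminotransferase and a 3-oxo-5-alpha-steroid 4-dehydrogenase 1-like gene (MELO3C012324.2; log2 change 0.01, SE 1.12, adjusted p = 1.0). The remaining gene was at 35 DAP an aquaporin (MELO3C005685.2), a membrane water channel, and at 25 DAP an abscisic stress ripening-like gene (MELO3C025025.2). The aquaporin rose, with 10560.3, 5417 and 13679 TPM at 35 DAP against 4495, 2811 and 4192 TPM at 25 DAP (1.29, SE 0.37, adjusted p = 0.00852), a call that ended in a fit to the 6 libraries alone (adjusted p = 0.146) and without library 3 of 35 DAP (0.053). The abscisic stress ripening-like gene fell to 698, 917 and 797 TPM at 35 DAP, against 9548, 10651 and 12189 TPM at 25 DAP (-3.75, SE 1.27, adjusted p = 0.0254). Its groups lie far apart, and its large SE is pooled over all 24 libraries. The call ended without library 1 (adjusted p = 0.0637) or 3 (0.0556) of 35 DAP and without library 1 (0.0539), 2 (0.0565) or 3 (0.0645) of 25 DAP.

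The leading increase was that of a gene described as cyclin-dependent protein kinase inhibitor SMR4 (MELO3C023871.2), of a family that in Arabidopsis restrains the cell cycle. It was at 2245, 1175 and 1934 TPM at 35 DAP and at 0, 13.0 and 10.6 TPM at 25 DAP (a log2 change of 8.31, SE 1.23, limma adjusted p = 3.22e-05). Every library at 35 DAP thus exceeded every library at 25 DAP by far, and at 45 DAP the mean was 440 ± 299 TPM (SD, n = 3). A Kunitz trypsin inhibitor (MELO3C002175.2), of a protein family that blocks serine proteases, was at 3064, 4405 and 1776 TPM at 35 DAP and 37.4, 109 and 53.8 TPM at 25 DAP (5.55, SE 0.42, adjusted p = 2.13e-08). A gene described as an efflux pump subunit (MELO3C003118.2) had 162, 85.8 and 231 TPM at 35 DAP and 4.62, 2.17 and 3.16 TPM at 25 DAP (5.14, SE 0.45, adjusted p = 9.19e-08). Its mean was 10.8 ± 5.68 TPM at 45 DAP and 3.94 ± 2.55 TPM at 15 DAP (SD, n = 3 each), so that among the 4 ages it was highest at 35 DAP.

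The other 5 leading increases were of mixed kinds. An alpha/beta hydrolase (MELO3C021901.2) was at 649.6, 418 and 752 TPM at 35 DAP and 22.7, 19.2 and 21.3 TPM at 25 DAP (4.75, SE 0.54, adjusted p = 1.77e-06). A SWEET gene (MELO3C002381.2), of a family of sugar transporters that move sugar down its gradient, was at 428, 206 and 408 TPM against 12.1, 28.6 and 10.8 TPM (4.32, SE 0.67, adjusted p = 5.13e-05). A hyoscyamine 6-dioxygenase-like gene (MELO3C015743.2) rose to 176, 185 and 107 TPM, against 6.31, 9.44 and 9.76 TPM at 25 DAP (4.03, SE 0.35, adjusted p = 9.14e-08). The zinc finger gene ZAT12-like (MELO3C023840.2), related to a stress-responsive regulator of Arabidopsis, rose by 4.77 (SE 1.13, adjusted p = 0.00244), with a wide spread of 209.8, 281 and 75.8 TPM at 35 DAP against 1.65, 12.5 and 5.31 TPM at 25 DAP. A cysteine-rich transmembrane protein gene (MELO3C012630.2) rose by 4.38 (SE 1.22, adjusted p = 0.00785), a call that ended without library 1 of 25 DAP (adjusted p = 0.0531).

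The leading decrease was that of a metallothionein (metallothionein-like protein 4A, MELO3C003132.2), a small metal-binding protein. It fell to 36.3, 13.3 and 32.0 TPM at 35 DAP, against 6342, 4245 and 3033 TPM at 25 DAP (a log2 change of -7.38, SE 0.50, limma adjusted p = 7.23e-09). In younger WT flesh at 15 DAP it had averaged 24301 ± 1686 TPM (SD, n = 3). A gene named ACC oxidase homolog 6 (MELO3C022978.2) had 6.35, 28.6 and 4.52 TPM at 35 DAP and 383, 939.6 and 405 TPM at 25 DAP (-5.63, SE 0.47, adjusted p = 5.46e-08). That name covers dioxygenases related in sequence to ACC oxidase. A BAHD acyltransferase (DCR-like, MELO3C003230.2), of a kind that in Arabidopsis is needed for cutin, was at 19.3, 7.78 and 22.4 TPM against 804, 504 and 654 TPM (-5.32, SE 0.43, adjusted p = 3.99e-08).

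Several further genes were near or at 0 at 35 DAP. A DnaJ chaperone gene (MELO3C002119.2) was at 2.49, 1.46 and 2.22 TPM at 35 DAP and 143, 84.5 and 140.0 TPM at 25 DAP (-5.31, SE 0.39, adjusted p = 1.55e-08). A glutamate racemase gene (MELO3C018509.2) was at 0.540, 0.360 and 0 TPM against 51.3, 50.6 and 37.9 TPM (-5.20, SE 0.41, adjusted p = 3.99e-08). A cysteine proteinase inhibitor (MELO3C018593.2) was at 0.150, 0 and 0.130 TPM against 75.8, 39.8 and 33.1 TPM (-5.44, SE 0.88, adjusted p = 8.31e-05). Both remaining genes of the 8 leading decreases were listed at 0 in all 3 libraries at 35 DAP. They are a tobamovirus multiplication protein 2A gene (MELO3C003376.2), with 50.4, 48.8 and 31.6 TPM at 25 DAP, and a gene described only as BnaA04g06320D protein (MELO3C027875.2), with 104, 27.6 and 65.7 TPM at 25 DAP.

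**Figure D2:**
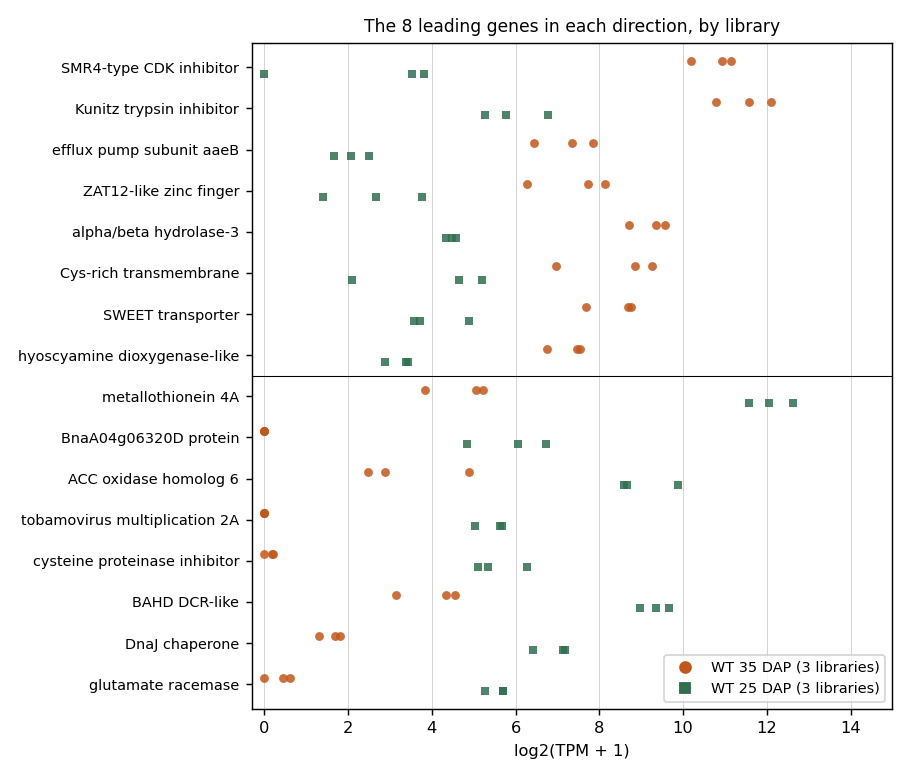
Level in each library, as log2(TPM + 1), of the 8 genes that led the increases (above the line) and the 8 that led the decreases (below it), with WT 35 DAP as circles above WT 25 DAP as squares. For each gene the 3 circles and the 3 squares do not overlap, a condition of the choice, and the squares of the SMR4-type inhibitor spread from 0 to 13.0 TPM.

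Gene lists, made from words in the table's descriptions, differed in how many members moved. The background was 24.8% of tested genes rising and 14.1% falling. Cytosolic ribosomal proteins (77.8% rising, 0.599% falling), histones (47.2% and 0.0%), heat shock proteins and chaperones (39.4% and 14.4%) and ethylene synthesis (39.1% and 8.7%) held more rising members than that background. Photosynthesis (5.32% rising, 39.4% falling), phloem (0.0% and 44.0%), rind and epidermis (23.8% and 38.1%), chlorophyll breakdown (9.09% and 36.4%), sucrose and raffinose sugars (11.9% and 33.3%) and carotenoid synthesis (20.5% and 30.8%) held more falling members. Transcription factor families, hormone genes and wall enzymes mostly had smaller shares of rising members than all genes.

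**Figure D3:**
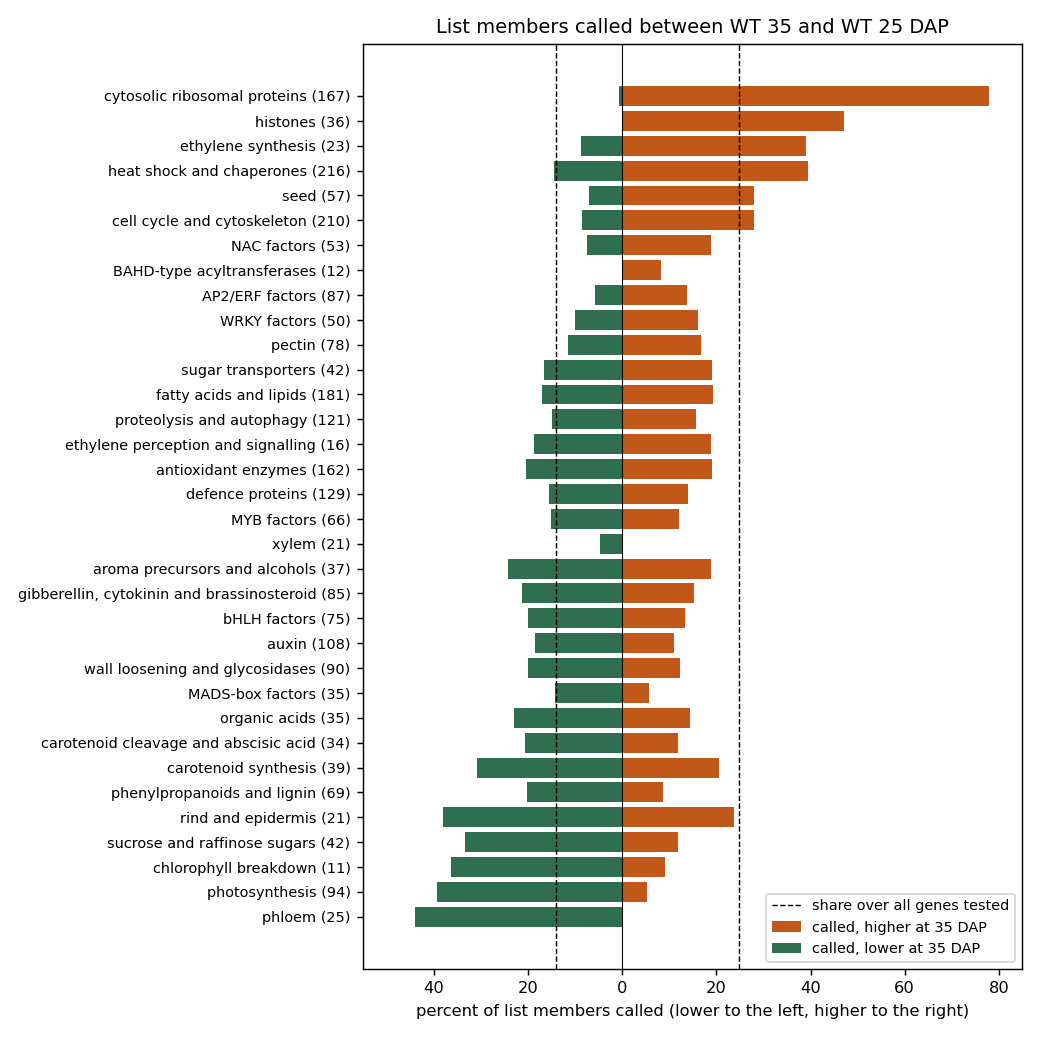
Percent of the tested members of each of 34 gene lists that were called higher (right) or lower (left) in WT 35 DAP than in WT 25 DAP, with the number tested in brackets and dashed lines at the shares over all 17658 genes, 24.8% and 14.1%. Cytosolic ribosomal proteins reach furthest right and phloem genes furthest left.

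Ethylene synthesis shifted among its less abundant members. Of 23 tested members 9 rose and 2 fell, with a median change of 0.38 against 0.10 for all genes. The count of rising members was 5 after quantile normalization, and that of falling members was 1 without library 1 or 3 of 35 DAP, without library 2 or 3 of 25 DAP and under 3 other alternatives. A gene named ACC oxidase 2 (MELO3C027119.2) was at 58.2, 65.5 and 71.1 TPM at 35 DAP and 14.6, 17.3 and 17.6 TPM at 25 DAP (a log2 change of 1.91, SE 0.15, limma adjusted p = 4.1e-08). At 15 DAP it had averaged 127 ± 10.4 TPM (SD, n = 3), above its level at 35 DAP. A gene of the same name (MELO3C027120.2) rose by 1.29 (SE 0.12, adjusted p = 2.33e-07), to a mean of 13.3 TPM at 35 DAP against 31.3 TPM at 15 DAP. An ACC oxidase (MELO3C024857.2), which had averaged only 1.46 TPM at 15 DAP, rose by 1.27 (SE 0.23, adjusted p = 0.000234). In the other direction an ACC oxidase (MELO3C019735.2, chosen after its values were seen) fell to 359.6, 239 and 407 TPM, against 677, 908 and 756 TPM at 25 DAP (-1.24, SE 0.35, adjusted p = 0.00854). How reads were shared among similar copies is not given in the sources used here, so single members of this and other gene families are uncertain. An ACC synthase gene (MELO3C021182.2, also chosen after its values were seen), whose enzyme makes ACC, was at 146, 385 and 56.6 TPM at 35 DAP and 33.1, 53.8 and 56.2 TPM at 25 DAP (1.64, SE 0.45, adjusted p = 0.00721). Its lowest library at 35 DAP lay only just above the highest at 25 DAP, and the call ended in a fit to the 6 libraries alone (adjusted p = 0.143), to the 12 WT libraries (0.0539), with a pseudocount of 0.1 (0.0517) and without library 2 of 35 DAP (0.0509).

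In ethylene perception and signalling 3 of 16 tested members rose and 3 fell (18.8% each, against 24.8% and 14.1% of all genes), or 6 fell after median-of-ratios scaling. A REVERSION-TO-ETHYLENE SENSITIVITY1-like gene (MELO3C016866.2) rose to 63.2, 55.8 and 52.0 TPM, against 21.2, 22.4 and 19.9 TPM at 25 DAP (1.38, SE 0.34, limma adjusted p = 0.00304), while its relative (MELO3C016410.2) fell by 0.70 on the log2 scale (SE 0.12, adjusted p = 0.000209). In Arabidopsis this protein acts with an ethylene receptor. ETHYLENE INSENSITIVE 3 (MELO3C015633.2), a central transcription factor of the pathway, was at 106, 158 and 95.6 TPM at 35 DAP and 176, 173 and 172 TPM at 25 DAP (-0.56, SE 0.13, adjusted p = 0.00198), and this call ended in a fit to the 6 libraries alone (adjusted p = 0.0773).

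Members of the aroma lists other than the abundant ones moved in both directions. Among 37 genes for aroma precursors and alcohols 7 rose (18.9%) and 9 fell (24.3%), against 24.8% and 14.1% of all genes. After median-of-ratios scaling 4 rose. A lipoxygenase (MELO3C014482.2), of a family that oxidises fatty acids to precursors of aldehydes, fell to 52.2, 46.2 and 29.8 TPM, against 166, 230.5 and 155 TPM at 25 DAP (-2.10, SE 0.34, adjusted p = 8.23e-05). An alcohol dehydrogenase-like gene (MELO3C022399.2) fell by 0.72 (SE 0.11, adjusted p = 4.9e-05) and a tyrosine decarboxylase family gene (MELO3C012835.2) by 1.39 (SE 0.22, adjusted p = 6.59e-05). In a list of 12 BAHD-type acyltransferases 1 rose in limma (0 to 2 over the alternatives) and none fell (1 at an unadjusted p under 0.05). This list does not hold the DCR-like BAHD gene above (MELO3C003230.2), whose log2 change was -5.32. The count of falling members of the list was 1 after median-of-ratios or quantile scaling and in a fit to the 12 WT libraries.

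Carotenoid genes divided. Of 39 tested members of the synthesis list 8 rose (20.5%) and 12 fell (30.8%), against 24.8% and 14.1% of all genes. The median change was -0.23. Phytoene synthase (MELO3C014677.2, chosen after its values were seen), which makes the first carotene of the pathway, was at 59.9, 31.3 and 97.4 TPM at 35 DAP and 11.1, 5.57 and 10.3 TPM at 25 DAP (a log2 change of 2.58, SE 0.33, limma adjusted p = 6.75e-06). It was at 14.0 ± 6.20 TPM at 45 DAP (SD, n = 3). A beta-carotene 3-hydroxylase (MELO3C005703.2, also chosen after its values were seen), which turns beta-carotene into xanthophylls, was at 106, 150.3 and 95.6 TPM against 44.2, 50.8 and 41.8 TPM (1.32, SE 0.20, adjusted p = 4.67e-05). By 2-fold or more 6 members rose and 6 fell. Some enzymes before and after phytoene in the pathway fell, unlike the hydroxylase. 1-Deoxy-D-xylulose 5-phosphate synthase (MELO3C021375.2), at the entry of the plastid isoprenoid pathway, was at 44.6, 48.2 and 59.8 TPM at 35 DAP and 229, 196 and 211 TPM at 25 DAP (-2.04, SE 0.21, adjusted p = 4.94e-07). Carotenoid isomerase (MELO3C009571.2) fell by 1.77 (SE 0.17, adjusted p = 3.08e-07) and lycopene beta cyclase (MELO3C020744.2), which forms beta-carotene, by 1.01 (SE 0.10, adjusted p = 6.15e-07).

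Genes of carotenoid cleavage and abscisic acid include the 9-cis-epoxycarotenoid dioxygenases (NCED), which catalyse the committed step of abscisic acid synthesis. The largest fall in the list was that of the abundant abscisic stress ripening-like gene given above (MELO3C025025.2, -3.75). Of 34 tested members 4 rose (11.8%) and 7 fell (20.6%), against 24.8% and 14.1% of all genes. The list's summed level was 5725 to 7263 TPM at 35 DAP against 18427 to 20855 TPM at 25 DAP, most of it from the abscisic stress ripening-like genes. The count of 4 rising members was 1 without library 1 of 35 DAP or library 2 of 25 DAP, and 2 without library 3 of 35 DAP, without library 1 or 3 of 25 DAP and after median-of-ratios scaling. An NCED (MELO3C007127.2) was at 9.67, 10.3 and 10.7 TPM at 35 DAP and 194, 111 and 131 TPM at 25 DAP (-3.66, SE 0.51, limma adjusted p = 1.62e-05). Another (MELO3C023086.2) was at 4.95, 2.49 and 4.84 TPM against 40.9, 26.5 and 44.6 TPM (-2.92, SE 0.37, adjusted p = 6.88e-06). The most abundant of them (MELO3C016224.2) had 301, 293 and 319 TPM at 35 DAP and 564, 568 and 599.9 TPM at 25 DAP (-0.92, SE 0.18, adjusted p = 0.000448). An abscisic stress ripening-like gene (MELO3C025027.2) was at 1978, 1932 and 1729 TPM against 3856, 4108 and 3913 TPM (-1.08, SE 0.19, adjusted p = 0.000154). In none of these 4 genes did the libraries of the ages overlap, which was also so in 52.8% of all tested genes.

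Genes of sucrose and raffinose metabolism fell more than they rose in number. Of 42 tested members 14 fell and 5 rose, with a median change of -0.23, and the summed level was 1397 to 1579 TPM at 35 DAP against 2287 to 2462 TPM at 25 DAP. A sucrose synthase (MELO3C025101.2, chosen after its values were seen), which can split sucrose, was at 7.58, 2.47 and 8.69 TPM at 35 DAP and 302, 189 and 207 TPM at 25 DAP (a log2 change of -5.11, SE 0.53, limma adjusted p = 6.03e-07). An alpha-galactosidase (MELO3C010698.2), which releases galactose from the raffinose sugars that melon carries in its phloem, was at 5.66, 5.12 and 10.3 TPM against 28.8, 34.6 and 33.0 TPM (-2.10, SE 0.20, adjusted p = 2.31e-07). Galactokinase (MELO3C006726.2), which phosphorylates that galactose, was at 118, 139 and 117 TPM against 282, 341 and 294 TPM (-1.29, SE 0.11, adjusted p = 6.13e-08). A UDP-glucose 4-epimerase family gene (MELO3C005640.2), of the same route, fell by 1.48 (SE 0.14, adjusted p = 2.87e-07). An acid invertase (acid beta-fructofuranosidase, MELO3C005363.2, chosen after its values were seen), which also splits sucrose, moved the other way. It was at 73.0, 49.4 and 101 TPM at 35 DAP and 11.2, 10.6 and 19.3 TPM at 25 DAP (2.35, SE 0.45, adjusted p = 0.000433).

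Among 42 sugar transporters 8 rose (19.0%) and 7 fell (16.7%), against 24.8% and 14.1% of all genes. The number rising was 5 without library 1 of 25 DAP, and the number falling was 4 without library 1 of 35 DAP and in a fit to the 6 libraries alone. Beside the leading SWEET gene, a sucrose transporter (MELO3C011115.2) rose evenly to 24.4, 24.6 and 23.9 TPM, against 9.51, 11.4 and 9.26 TPM at 25 DAP (1.20, SE 0.14, limma adjusted p = 3.44e-06). A putative sugar transporter (MELO3C007324.2) was at 15.2, 16.2 and 15.5 TPM against 0.590, 0.840 and 1.03 TPM (3.20, SE 0.19, adjusted p = 2.09e-09). A SWEET gene (MELO3C016259.2, chosen after its values were seen) fell to 2.26, 0.850 and 2.75 TPM, against 77.0, 41.8 and 79.4 TPM at 25 DAP (-4.51, SE 0.57, adjusted p = 5.46e-06). For a further one (MELO3C026184.2, likewise chosen) library 2 differed from its group, with 1.89, 141 and 2.11 TPM at 35 DAP and 149, 246 and 98.0 TPM at 25 DAP (-3.83, SE 1.14, adjusted p = 0.0118). That call ended in a fit to the 6 libraries alone (adjusted p = 0.138) and without library 1 (0.0755) or 3 (0.0707) of 35 DAP. ERD6-like 7 (MELO3C014417.2), of a family of vacuolar sugar exporters, fell by 2.01 (SE 0.25, adjusted p = 5.09e-06).

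Organic acid genes included 5 that rose (14.3%) and 8 that fell (22.9%) among 35, against 24.8% and 14.1% of all genes. Phosphoenolpyruvate carboxylase (MELO3C005348.2), which feeds carbon into malate, was at 91.8, 94.6 and 92.5 TPM at 35 DAP and 213, 252 and 211 TPM at 25 DAP (-1.26, SE 0.16, limma adjusted p = 5.02e-06). Malate dehydrogenase (MELO3C007674.2) fell by 0.78 (SE 0.12, adjusted p = 4.95e-05) and isocitrate lyase (MELO3C017685.2) by 0.86 (SE 0.12, adjusted p = 1.37e-05). A malic enzyme (MELO3C015407.2, chosen after its values were seen) was at 105, 502 and 105 TPM against 699.7, 1107 and 704 TPM, library 2 being the highest at both ages (-2.20, SE 0.47, adjusted p = 0.000978). Its call ended in a fit to the 6 libraries alone (adjusted p = 0.0606).

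Wall enzymes did not move as a group. Of 78 pectin genes 13 rose (16.7%) and 9 fell (11.5%), both shares under the 24.8% and 14.1% of all genes, and 14 fell after median-of-ratios scaling. Their median was 0.04, yet their summed level was 1597 to 2492 TPM at 35 DAP against 4268 to 5033 TPM at 25 DAP. The most abundant, a polygalacturonase-like gene (MELO3C015128.2, chosen after its values were seen), which cuts the pectin backbone, had 766, 297 and 707 TPM at 35 DAP and 3216, 2178 and 2759 TPM at 25 DAP (a log2 change of -2.30, SE 0.81, limma adjusted p = 0.0304). The libraries of the ages lie apart, but the call ended with a pseudocount of 0.1 (adjusted p = 0.0716), after quantile normalization (0.0832) and without library 2 of 35 DAP (0.121) or library 1 (0.0845) or 3 (0.0697) of 25 DAP. A pectinesterase (MELO3C002316.2), which removes methyl groups from pectin, rose, with 57.7, 37.5 and 65.4 TPM against 6.90, 14.0 and 12.2 TPM (2.20, SE 0.25, adjusted p = 1.88e-06). A like gene (MELO3C031619.2) rose by 1.5 (SE 0.17, adjusted p = 2.01e-06), and a rhamnogalacturonate lyase (MELO3C007399.2) fell by 1.33 (SE 0.19, adjusted p = 2.42e-05).

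In the list of wall loosening enzymes and glycosidases 11 of 90 members rose and 18 fell. A mannan endo-1,4-beta-mannosidase (MELO3C022162.2, chosen after its values were seen), which cuts mannans, was at 1098, 264 and 1043 TPM at 35 DAP and 107, 115 and 213 TPM at 25 DAP (2.27, SE 0.65, limma adjusted p = 0.00883), and lost its call in a fit to the 12 WT libraries (adjusted p = 0.0604). Expansin-A10 (MELO3C001993.2), of a protein family that loosens walls without cutting them, was at 19.4, 3.11 and 12.2 TPM against 0.08, 0.10 and 0.50 TPM (3.09, SE 0.41, adjusted p = 1.05e-05). Another expansin (MELO3C020005.2, chosen after its values were seen) fell to 19.4, 39.0 and 13.9 TPM, against 174, 128 and 135 TPM at 25 DAP (-2.66, SE 0.38, adjusted p = 2.03e-05). The endoglucanase-like gene (MELO3C005716.2) had 199.6, 276 and 127 TPM at 35 DAP and 776, 768 and 567 TPM at 25 DAP (-1.86, SE 0.53, adjusted p = 0.00926), a call that ended with a pseudocount of 0.1 (adjusted p = 0.118). A beta-galactosidase (MELO3C025840.2) rose by 1.0 (SE 0.10, adjusted p = 7.26e-07) and another (MELO3C012472.2) fell by 0.98 (SE 0.12, adjusted p = 3.11e-06).

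**Figure D4:**
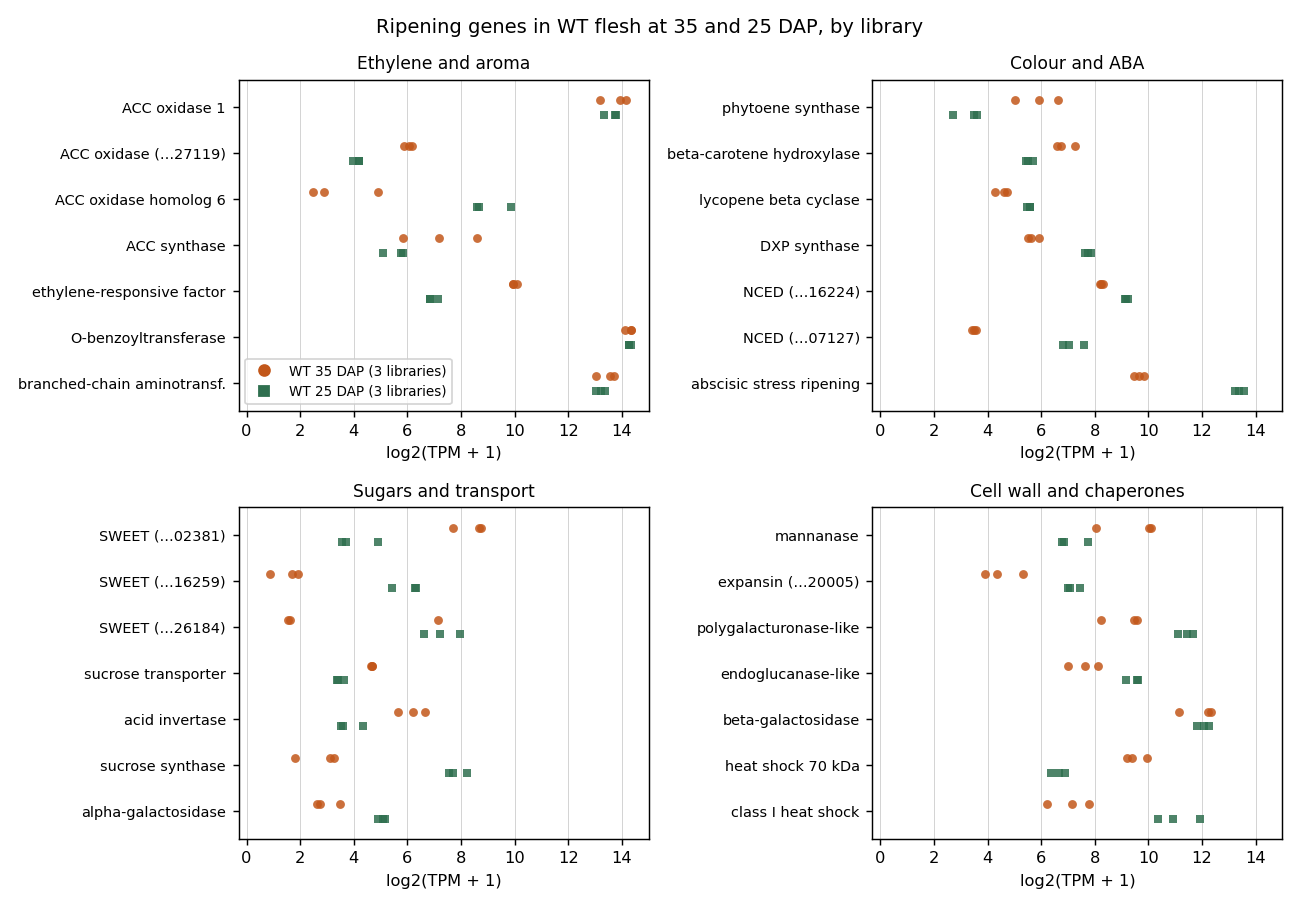
Level in each library, as log2(TPM + 1), of ethylene and aroma genes, colour and abscisic acid (ABA) genes, sugar genes, and wall and chaperone genes, with WT 35 DAP as circles above WT 25 DAP as squares. ACC oxidase 1, the O-benzoyltransferase, the aminotransferase and the beta-galactosidase overlap between ages, while phytoene synthase, both NCED genes, sucrose synthase and the heat shock genes do not.

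Cytosolic ribosomal proteins, the protein parts of the translation machinery, had the largest share of rising members among the 34 lists. Of 167 tested members 130 rose and 1 fell, with a median change of 0.75 against 0.10 for all genes. Their summed level was 25609, 27824 and 26583 TPM at 35 DAP and 14076, 15177 and 14784 TPM at 25 DAP. At 15 DAP it had been 36935 to 40526 TPM and at 45 DAP it was 25133 to 29826 TPM, so that 25 DAP had the lowest level of the 4 ages. After median-of-ratios scaling 113 members rose and 3 fell (median 0.56), and without library 2 of 35 DAP 120 rose and 2 fell (0.70). The single falling member, 60S ribosomal protein L23a (MELO3C022601.2), was low at both ages, at 0.150, 1.72 and 0.660 TPM against 2.14, 2.96 and 2.64 TPM, and was not called without library 1 or 3 of 35 DAP, without library 2 or 3 of 25 DAP or in a fit to the 6 libraries alone. 60S ribosomal protein L27A (MELO3C002294.2) was at 450.2, 444 and 471 TPM at 35 DAP and 173, 190.3 and 185 TPM at 25 DAP (a log2 change of 1.31, SE 0.09, limma adjusted p = 1.43e-08). 40S ribosomal protein S15a (MELO3C026975.2) was at 548, 567 and 576 TPM against 184, 183 and 191 TPM (1.59, SE 0.12, adjusted p = 2.82e-08), and S18 (MELO3C024071.2) rose by 1.20 (SE 0.09, adjusted p = 2.09e-08). The most abundant member, S27 (MELO3C005089.2, chosen after its values were seen), was at 1500.4, 1562 and 1361 TPM against 538, 578 and 597 TPM (1.37, SE 0.13, adjusted p = 2.61e-07).

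Histones, which package DNA, also moved mainly upward. Of 36 tested members 17 rose and none fell (median 0.68), and the count rising was 11 without library 2 of 35 DAP. The limma count of 0 falling members was 0 at an unadjusted p under 0.05 and 1 after median-of-ratios scaling. The summed level was 5939 to 6922 TPM at 35 DAP against 4061 to 4361 TPM at 25 DAP. A histone H3 (MELO3C011045.2) was at 588, 615 and 552 TPM at 35 DAP and 278, 282 and 280.4 TPM at 25 DAP (1.06, SE 0.14, adjusted p = 1.32e-05). A histone H4 (MELO3C013687.2) rose by 1.10 (SE 0.15, adjusted p = 1.29e-05), and the abundant histone H1 (MELO3C007889.2, chosen after its values were seen) was at 1741, 1632 and 1943 TPM against 959, 938 and 911 TPM (0.92, SE 0.20, adjusted p = 0.0011).

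Of 210 genes of the cell cycle and cytoskeleton 59 rose (28.1%) and 18 fell (8.57%), against 24.8% and 14.1% of all genes. Their median of 0.14 was close to that of all genes. After median-of-ratios scaling 47 rose and 33 fell. Kinesin-like protein NACK2 (MELO3C013420.2), of a kind that acts in plant cytokinesis, was at 10.7, 12.1 and 11 TPM at 35 DAP and 1.12, 1.29 and 1.18 TPM at 25 DAP (2.48, SE 0.24, limma adjusted p = 2.84e-07). A tubulin beta chain (MELO3C003218.2), a part of microtubules, fell to 153, 184 and 168 TPM, against 508, 496 and 439 TPM at 25 DAP (-1.51, SE 0.14, adjusted p = 2.66e-07). A calcyclin-binding protein gene (MELO3C002736.2) rose by 1.77 (SE 0.19, adjusted p = 7.42e-07).

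Chaperones, which help proteins fold, moved in opposite directions within one list. Of 216 tested members 85 rose and 31 fell, with a median of 0.33, and the summed levels overlapped at 14273 to 22499 TPM at 35 DAP and 18782 to 24961 TPM at 25 DAP. A 70 kDa heat shock protein (MELO3C024086.2) was at 82.8, 73.1 and 82.2 TPM at 35 DAP and 8.06, 4.81 and 7.18 TPM at 25 DAP (a log2 change of 3.41, SE 0.22, limma adjusted p = 3.93e-09). A more abundant one (MELO3C021648.2, chosen after its values were seen) was at 660.2, 994 and 582 TPM against 118, 82.0 and 99.6 TPM (2.86, SE 0.38, adjusted p = 9.88e-06). Hsp70-Hsp90 organizing protein 3 (MELO3C013974.2), which links both chaperones, was at 165, 202 and 169.8 TPM against 46, 39.1 and 43.9 TPM (2.03, SE 0.12, adjusted p = 1.46e-09). A dnaJ homolog (MELO3C012331.2, chosen after its values were seen) rose by 1.10 (SE 0.19, adjusted p = 0.000144), whereas a DnaJ-like gene (MELO3C030460.2) fell to 10.1, 13.9 and 12.8 TPM, against 90.8, 106 and 107 TPM at 25 DAP (-2.95, SE 0.16, adjusted p = 8.16e-10). A class I heat shock gene (MELO3C034100.2, also chosen after its values were seen), coding for a small chaperone, was at 139.6, 217 and 72.5 TPM against 1308, 3907 and 1931 TPM, with library 2 highest at both ages (-4.03, SE 0.89, adjusted p = 0.00143).

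Photosynthesis genes were mostly lower or uncalled at 35 DAP. Of 94 tested members 37 fell and 5 rose, with a median of -0.63. The summed level was 12999, 9779 and 18879 TPM at 35 DAP and 29722, 21433 and 27033 TPM at 25 DAP, without overlap. At 15 DAP it had been only 2237 to 3326 TPM, so that the level at 35 DAP was still above that of the youngest flesh. At 45 DAP it spread from 16812 to 46107 TPM. The count of falling members was 43 after median-of-ratios scaling and at least 28 under every alternative. The rising members numbered 3 without library 3 of 35 DAP or without any 1 library of 25 DAP. The photosystem II 22 kDa protein (MELO3C010608.2), which acts in photoprotection, was at 2.23, 4.20 and 2.40 TPM at 35 DAP and 93.5, 88.1 and 96.4 TPM at 25 DAP (a log2 change of -4.60, SE 0.39, limma adjusted p = 7.96e-08). A photosystem II 10 kDa polypeptide gene (MELO3C016181.2) was at 379, 347 and 496 TPM against 2429, 1829 and 2045 TPM (-2.37, SE 0.23, adjusted p = 3.58e-07), and the iron-sulfur subunit of cytochrome b6-f (MELO3C018775.2), which passes electrons between the photosystems, fell by 2.39 (SE 0.22, adjusted p = 1.7e-07). A small chain gene of ribulose bisphosphate carboxylase (MELO3C012252.2, chosen after its values were seen), the carbon-fixing enzyme, was at 132, 75.0 and 174 TPM against 815, 650.1 and 1039 TPM (-2.76, SE 0.49, adjusted p = 0.000178), and oxygen-evolving enhancer protein 1 (MELO3C007507.2, likewise chosen) fell by 1.56 (SE 0.30, adjusted p = 0.0004). One rising gene coded for a chlorophyll a-b binding protein (MELO3C007154.2, likewise chosen), at 149.6, 109 and 189.6 TPM against 55.6, 51.6 and 55.6 TPM (1.41, SE 0.41, adjusted p = 0.00984).

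Among 11 tested genes of chlorophyll breakdown 4 fell and 1 rose. The falling members numbered 2 without library 2 of 35 DAP, without library 1 of 25 DAP and with no filter on low values, and 7 after median-of-ratios scaling. The rising member was not called without library 3 of 35 DAP, after either scaling or in a fit to the 6 libraries alone. Red chlorophyll catabolite reductase (MELO3C020912.2), a late enzyme of the breakdown, was at 51.9, 44.2 and 62.2 TPM at 35 DAP and 126, 99.3 and 113 TPM at 25 DAP (-1.09, SE 0.20, limma adjusted p = 0.000233). STAY-GREEN (MELO3C005616.2), which takes magnesium out of chlorophyll, was at 558, 388 and 593 TPM against 798, 573 and 737 TPM, which overlap (-0.46, SE 0.18, adjusted p = 0.0479). That call ended without library 2 of 35 DAP (adjusted p = 0.263), without library 1 (0.182) or 3 (0.129) of 25 DAP, in fits to the 6 (0.158) or 12 WT libraries (0.106), after quantile normalization (0.23) and with no filter on low values (0.0608).

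**Figure D5:**
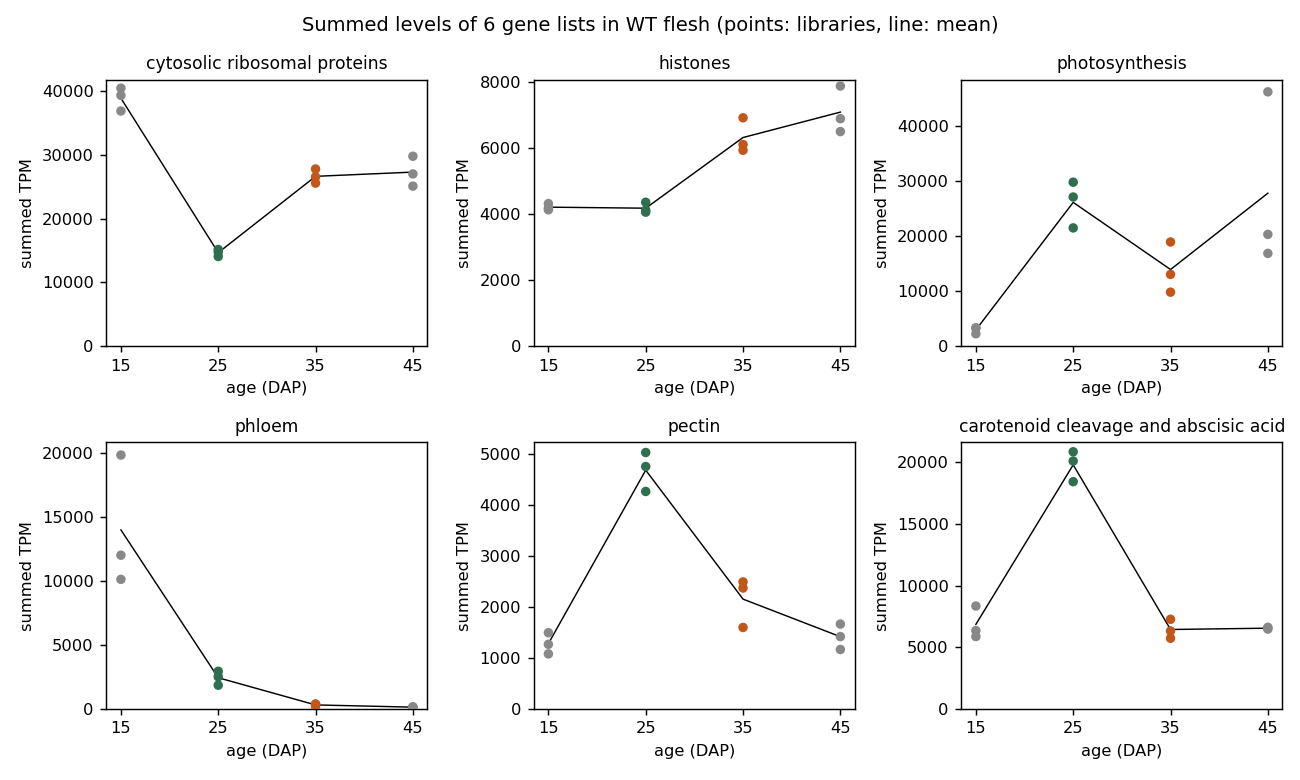
Summed TPM of 6 gene lists (vertical axes) in WT flesh by age in DAP (horizontal axes), with a point for each library and a line through the means of 3 libraries (35 DAP orange, 25 DAP green). Ribosomal protein transcripts dip at 25 DAP, phloem transcripts decline to 180.6 to 371.0 TPM at 35 DAP against 1844 to 2934 TPM at 25 DAP, and photosynthesis, pectin and abscisic acid lists stand lower at 35 DAP than at 25 DAP.

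In each of the 6 transcription factor families the share of rising members was under the 24.8% of all genes. Of 87 AP2/ERF genes 12 rose and 5 fell, and the number falling was 11 without library 2 of 35 DAP and 9 after median-of-ratios scaling. RAP2-3-like (MELO3C021306.2), of the ethylene-responsive factor family, was at 986, 1103 and 987 TPM at 35 DAP and 115, 141 and 115 TPM at 25 DAP (a log2 change of 3.04, SE 0.27, limma adjusted p = 1.31e-07). It averaged 1109 ± 253 TPM at 15 DAP and 2038 ± 228 TPM at 45 DAP (SD, n = 3 each), so that its level at 25 DAP was the lowest of the 4 ages. ERF113-like (MELO3C022358.2) rose by 1.58 (SE 0.29, adjusted p = 0.000263), and WRI1 (MELO3C012314.2), which in Arabidopsis drives fatty acid synthesis, fell by 1.28 (SE 0.20, adjusted p = 4.73e-05). Of 53 NAC genes 10 rose and 4 fell (5 and 7 after median-of-ratios scaling, with 2 falling without library 2 of 25 DAP). A NAC gene without a number in its description (MELO3C017754.2) was at 1109, 461 and 1088 TPM at 35 DAP and 159, 122 and 149 TPM at 25 DAP (2.52, SE 0.30, adjusted p = 2.67e-06). At 45 DAP it averaged 182 ± 70.8 TPM (SD, n = 3). NAC82 (MELO3C008056.2) rose by 1.13 (SE 0.11, adjusted p = 2.18e-07) and NAC83 (MELO3C022342.2) fell by 0.97 (SE 0.15, adjusted p = 3.8e-05).

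MADS-box genes, among them floral organ identity factors of the AGAMOUS kind, had 2 rising (5.71%) and 5 falling (14.3%) members among 35. The share falling was thus near the 14.1% of all genes. The rising members numbered 1 without library 2 and 4 without library 3 of 35 DAP, 0 without library 1 of 25 DAP, and 1 with a filter of 5 TPM or in a fit to the 6 libraries alone. An AGAMOUS gene (MELO3C007181.2) was at 5.48, 5.50 and 4.81 TPM at 35 DAP and 51.2, 52.6 and 48.8 TPM at 25 DAP (-3.05, SE 0.20, limma adjusted p = 5.68e-09), and MADS-box factor 8-like (MELO3C022315.2) fell by 3.25 (SE 0.36, adjusted p = 1.44e-06). A more abundant AGAMOUS gene (MELO3C002691.2) was at 434, 407 and 493 TPM against 737, 787 and 749 TPM (-0.77, SE 0.15, adjusted p = 0.000399). Of 50 WRKY genes, a family tied to stress and defence, 8 rose and 5 fell, with 5 rising without library 1 of 25 DAP and 9 falling after median-of-ratios scaling. A WRKY gene (MELO3C017743.2) was at 246, 189 and 228 TPM against 52.5, 56.1 and 65.8 TPM (1.91, SE 0.30, adjusted p = 5.9e-05). Of 75 bHLH genes 10 rose and 15 fell, and of 66 MYB genes 8 rose and 10 fell. A bHLH gene (MELO3C011994.2) was at 124, 74.5 and 111 TPM against 6.12, 14.1 and 13.3 TPM (3.14, SE 0.30, adjusted p = 2.63e-07). The MYB factor APL (MELO3C026896.2), which in Arabidopsis is needed for phloem identity, was at 4.80, 2.06 and 4.77 TPM against 22.5, 18.7 and 17.4 TPM (-2.13, SE 0.26, adjusted p = 3.8e-06).

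In the auxin list 12 of 108 members rose (11.1%) and 20 fell (18.5%), against 24.8% and 14.1% of all genes, with 13 falling without library 1 of 35 DAP. An auxin response factor (MELO3C022932.2) rose evenly to 160.2, 172 and 162 TPM, against 54.6, 63.2 and 58.4 TPM at 25 DAP (a log2 change of 1.47, SE 0.10, limma adjusted p = 8.83e-09). An auxin efflux carrier (MELO3C017357.2) was at 1.10, 1.06 and 1.0 TPM against 12.8, 11.6 and 11.1 TPM (-2.64, SE 0.26, adjusted p = 3.97e-07). Gibberellin, cytokinin and brassinosteroid genes had 13 rising (15.3%) and 18 falling (21.2%) members among 85. Gibberellin 20 oxidase 1-like (MELO3C022518.2), of the enzymes that make active gibberellins, was at 0.110, 0.200 and 0.390 TPM at 35 DAP and 75.6, 42.8 and 22.3 TPM at 25 DAP (-5.12, SE 0.40, adjusted p = 3.15e-08). A gibberellin 2-beta-dioxygenase (MELO3C025210.2), of the enzymes that inactivate them, was at 142, 86.1 and 126 TPM against 24.7, 14.4 and 26.4 TPM (2.40, SE 0.32, adjusted p = 9.33e-06). The libraries of the ages did not overlap in either gene, which was also so in 52.8% of all tested genes.

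Other lists held rising and falling members. Their shares of rising members were under the 24.8% of all genes, and those of falling members were 14.9% to 20.4% against 14.1%. Of 162 antioxidant genes 31 rose (19.1%) and 33 fell (20.4%). Of 181 fatty acid and lipid genes 35 rose (19.3%) and 31 fell (17.1%), with 22 rising after median-of-ratios scaling. Of 121 genes for proteolysis and autophagy 19 rose (15.7%) and 18 fell (14.9%), with 29 falling after that scaling. Of 129 defence genes 18 rose (14.0%) and 20 fell (15.5%). A monodehydroascorbate reductase (MELO3C021554.2), which recycles vitamin C, was at 90.9, 74.7 and 82.4 TPM at 35 DAP and 25.1, 26.2 and 34.8 TPM at 25 DAP (1.5, SE 0.13, limma adjusted p = 7.58e-08). A phospholipase D (MELO3C017887.2), which cleaves membrane lipids, was at 49.6, 46.9 and 59.3 TPM against 192, 216 and 186 TPM (-1.92, SE 0.17, adjusted p = 1.17e-07). Aspartic proteinases moved both ways, CDR1 (MELO3C019610.2) being at 48.9, 19.9 and 57.2 TPM against 2.16, 3.10 and 2.57 TPM (3.45, SE 0.25, adjusted p = 1.55e-08) and nepenthesin-2 (MELO3C009522.2) at 10.2, 11.5 and 10.5 TPM against 122, 94.4 and 104 TPM (-3.19, SE 0.21, adjusted p = 5.88e-09). Of 69 phenylpropanoid and lignin genes 6 rose (8.7%) and 14 fell (20.3%). Caffeoyl-CoA O-methyltransferase (MELO3C011872.2), an enzyme of lignin precursors, was at 274, 339.6 and 287 TPM against 1234, 1186 and 1017 TPM (-1.93, SE 0.23, adjusted p = 3.71e-06). L-ascorbate oxidase (MELO3C015643.2) was under 3 TPM in all 6 libraries, and its change of -0.63 (SE 0.31, adjusted p = 0.119) passed the test only with a pseudocount of 0.1 (adjusted p = 0.0247).

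Markers of other tissues that flesh samples can hold were followed beside these results. Of 25 tested phloem genes 11 fell at 35 DAP and 14 were not called, with a median change of -0.06 against 0.10 for all genes. None rose in limma or under any alternative (0 at an unadjusted p under 0.05). Their summed level was 371.0, 180.6 and 355.4 TPM at 35 DAP and 2934, 1844 and 2502 TPM at 25 DAP. At 15 DAP it had been 10121 to 19837 TPM. The 26 kDa phloem lectin (MELO3C002874.2, chosen after its values were seen), a sieve element protein, made up most of it, at 250.0, 109.7 and 232 TPM against 2276, 1339.6 and 1919 TPM (a log2 change of -3.27, SE 0.42, limma adjusted p = 7.45e-06). PHLOEM PROTEIN 2-LIKE A1 genes were near 0 at 35 DAP, one (MELO3C027112.2) at 2.99, 0.490 and 3.64 TPM against 119, 92.9 and 103 TPM (-5.12, SE 0.33, adjusted p = 4.17e-09) and another (MELO3C018681.2) at 2.51, 0.980 and 2.28 TPM against 35.3, 29.8 and 41.6 TPM (-3.68, SE 0.38, adjusted p = 6.32e-07). The A9 gene (MELO3C021767.2, also chosen after its values were seen) fell by 4.19 (SE 0.48, adjusted p = 2.11e-06). In bulk flesh, fewer cells of a type and less RNA per cell cannot be told apart. The part of phloem in the falls of sugar transporters and sucrose synthase was not tested.

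The list of rind and epidermis markers had 8 falling and 5 rising members among 21. The rising members numbered 3 without library 3 of 35 DAP, 2 without library 1 of 25 DAP and 1 with a filter of 5 TPM, and the falling members 5 in a fit to the 6 libraries alone. The summed level was 172.8 to 207.4 TPM at 35 DAP against 394.5 to 447.9 TPM at 25 DAP. A non-specific lipid-transfer protein gene (MELO3C009108.2), of a kind found in epidermis, was at 0.180, 0.990 and 0.240 TPM against 47.3, 31.6 and 30.4 TPM (-4.68, SE 0.47, limma adjusted p = 4.65e-07). A 3-ketoacyl-CoA synthase (MELO3C026618.2), of the enzymes that lengthen wax precursors, was at 1.49, 8.84 and 0.840 TPM against 63.8, 78.5 and 40.5 TPM (-4.07, SE 0.42, adjusted p = 5.57e-07). Both genes were picked by adjusted p, and the list moved both ways. By 2-fold or more 5 members fell and 2 rose, and the highest log2 change in the list was 1.58. The DCR-like acyltransferase above is from outside this list. The part of outer tissue in these falls was not tested. Seed markers overlapped in summed level, at 1082 to 1653 TPM at 35 DAP and 1127 to 1591 TPM at 25 DAP. Of 57 members 16 rose (28.1%), near the 24.8% of all genes. Falling were 4 (7.02%, against 14.1%), or 2 without library 1 or 3 of 35 DAP or library 2 of 25 DAP. Most of the list are late embryogenesis abundant genes, which vegetative tissue also uses under water loss, such as d-29 (MELO3C016387.2), at 75.1, 28.5 and 57.6 TPM against 1.93, 2.78 and 2.10 TPM (3.97, SE 0.34, adjusted p = 7.79e-08). Xylem markers were low, at 71.3 to 158 TPM against 95.4 to 107.8 TPM, with 1 of 21 falling and none rising in limma (2 at an unadjusted p under 0.05), or 1 rising without library 1 or 3 of 35 DAP and 2 in fits to the 6 or 12 WT libraries.

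A few genes were under 1 TPM at one age and clearly above it at the other. At 10 TPM or more in all 3 libraries at 35 DAP and under 1 TPM in all 3 at 25 DAP were 6 genes, of which 5 are described as unknown proteins and 1 (MELO3C000336.2) only as a transcription factor, at 11.1, 21.6 and 11.7 TPM against 0.930, 0.980 and 0.590 TPM. The highest of the unknown genes (MELO3C034258.2) was at 242, 145 and 336 TPM at 35 DAP and listed at 0 in all 3 libraries at 25 DAP. The reverse was true of 14 genes, among them the gibberellin 20 oxidase, the lipid-transfer protein, the glutamate racemase and the cysteine proteinase inhibitor above. Others were alpha-farnesene synthase (MELO3C016595.2), which makes a sesquiterpene volatile, at 0.590, 0.750 and 0.310 TPM against 35.7, 24.0 and 28.2 TPM (a log2 change of -4.28, SE 0.16, limma adjusted p = 3.67e-12), and sulfate transporter 3.1-like (MELO3C015798.2), at 0.590, 0.180 and 0.630 TPM against 28.2, 11.7 and 14.6 TPM (-3.63, SE 0.33, adjusted p = 1.73e-07). All of these were picked for crossing both levels.

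The same interval was measured in cmnac-nor flesh, and the difference between the WT step and the mutant step was tested in the same limma model. It passed the test in 6023 genes (34.1%), with the WT step higher in 3697 (20.9%) and lower in 2326 (13.2%). In the mutant itself 10.8% of genes rose and 9.75% fell. Among ribosomal proteins the WT step was higher in 127 of 167 members and lower in 1. In the mutant 7 of them rose and 7 fell, and their summed level was 49684 to 53211 TPM at 35 DAP and 47355 to 60788 TPM at 25 DAP, above WT at both ages. Photosynthesis genes had a lower WT step in 39 of 94 members and a higher one in 4, and in the mutant 13 rose and 1 fell. Of 36 histones 12 rose in the mutant, and the WT step was higher in 7 and lower in 5. Of 25 phloem genes the WT step was lower in 6 and higher in 1, and 6 fell in the mutant, where the summed level was 3844 to 7147 TPM at 35 DAP and 5934 to 9134 TPM at 25 DAP.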

How the data were processed

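The deposited table holds 1 value per gene and library for 24 libraries. No header or label names its unit. Library totals of 927159 to 963192 and decimal values led to their treatment as TPM made by the authors. Per the labels' protocols, RNA was extracted with Trizol, cleaned with DNase treatment and made into TruSeq libraries. TopHat2, HISAT2, StringTie and Cufflinks were used, per the submitters' processing notes. The genome build was not given in the sources used here, nor were the gene models or the tools' versions and roles. TPM are relative within a library, so a few abundant transcripts lower all others.

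Genes at 1 TPM or more in 3 or more of 24 libraries were tested with limma-trend (limma 3.58.1, R 4.3.3) on log2(TPM + 1), in 1 model of 8 group means without covariates. Tests were two-sided, with Benjamini-Hochberg adjustment over 17658 genes and a threshold of 0.05. Tables were assembled with Python 3.11.15 and pandas 2.3.3. The fit was also run on simulated data, whose outcome is not given here and is not used as support for the calls. No 2 library columns were identical. Alternatives were a pseudocount of 0.1, no filter, a filter of 5 TPM, median-of-ratios and quantile scaling, fits to fewer groups, a replicate block and leaving out each library. The members, the 34 lists and the named genes' rule were chosen with earlier results of these data known, so no set test was run and no list supports another. Named were the 8 largest changes each way among called, described genes without overlap, up to 3 members of each list by adjusted p, both reaching a mean of 10 TPM at one age, the 5 most abundant genes per age and 10 landmark genes. Of the gene identifiers 0 matched a reference table of another assembly, so no coordinates or sequences are given. No sample was dropped.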

Additional observations from a re-analysis of the deposited data

Results flagged for a closer look

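For the 16 genes that led the WT step from 25 to 35 DAP and the 10 landmark genes, 26 in all, the difference between the WT step and the cmnac-nor step was tested in limma, and 19 passed, 8 with the WT step higher and 11 with it lower. Over all tested genes 34.1% passed, 20.9% with the WT step higher and 13.2% with it lower. All values here are differences of log2 changes, WT step minus mutant step. The leading genes were chosen for a large WT step, so a difference in the same direction is no independent finding. The landmark genes were chosen with earlier results of these data known, so their count is no independent finding either.

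Among the leading increases the difference was 7.26 for the SMR4-type inhibitor (MELO3C023871.2), 7.18 for the ZAT12-like gene (MELO3C023840.2), 7.09 for the cysteine-rich transmembrane gene (MELO3C012630.2), 5.75 for the efflux pump subunit (MELO3C003118.2), 5.47 for the Kunitz trypsin inhibitor (MELO3C002175.2), 4.19 for the alpha/beta hydrolase (MELO3C021901.2) and 3.39 for the hyoscyamine 6-dioxygenase-like gene (MELO3C015743.2). The SMR4-type inhibitor averaged 2.58 ± 4.47 TPM in the mutant at 35 DAP (SD, n = 3) and was listed at 0 there at 25 DAP. The leading SWEET gene (MELO3C002381.2) rose in the mutant as well, by 3.14 (adjusted p = 0.00297), and its difference of 1.18 did not pass the test (SE 0.94, adjusted p = 0.355).

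Among the leading decreases the difference was -7.13 for metallothionein 4A (MELO3C003132.2), -7.04 for ACC oxidase homolog 6 (MELO3C022978.2), -5.92 for glutamate racemase (MELO3C018509.2), -5.58 for the tobamovirus multiplication 2A gene (MELO3C003376.2), -4.41 for the DCR-like acyltransferase (MELO3C003230.2), -3.33 for the cysteine proteinase inhibitor (MELO3C018593.2) and -3.11 for the DnaJ gene (MELO3C002119.2). ACC oxidase homolog 6 rose in the mutant by 1.41 (adjusted p = 0.0392), while metallothionein averaged 10857 ± 1493 TPM there at 35 DAP (SD, n = 3).

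Of the landmark genes, ACC oxidase 1 (MELO3C014437.2) differed by 3.35. It fell in the mutant by 3.23 (adjusted p = 0.00107), and its WT change of 0.13 did not pass the test. STAY-GREEN (MELO3C005616.2) differed by -1.20, the NCED (MELO3C016224.2) by -0.80, the beta-galactosidase (MELO3C015470.2) by -1.54 and L-ascorbate oxidase (MELO3C015643.2) by -2.08. The mutant levels of these 5 at 35 DAP were 8.57 ± 4.48, 41.2 ± 4.29, 24.9 ± 5.35, 39.1 ± 8.98 and 3269 ± 463 TPM in the order named (SD, n = 3 each).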

How the results depend on the processing

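The count of genes rising was 4385 as reported and 3140 to 4564 over the alternatives, and that of genes falling 2488 and 1990 to 3709, all within 1.5 times. Leaving out each of the 6 libraries in turn gave 3511 to 4032 rising and 1990 to 2548 falling. The step difference was called in 6023 genes, and in 5020 to 6407 under the alternatives. No gene called as reported was called in the opposite direction under any alternative. Of the 126 genes named by the rule 118 were called, none reversed, 7 lost the call somewhere and 1 gained it, and 5 of the 24 genes chosen after their values were seen lost it somewhere. Of the 7, pheophytinase (MELO3C023590.2, adjusted p = 0.0455) is not described above. It lost its call with no filter on low values (0.061) and without each library but the third of 35 DAP (0.062 to 0.154). Of 476 alternative list medians 78 moved by more than the spread between libraries and 19 changed sign, all of medians between -0.04 and 0.04.

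The labels do not say whether replicate numbers in the titles pair the libraries. Deviations from the group means correlated at 0.135, 0.482 and -0.0465 for numbers 1 to 3. Between unlike numbers they correlated at -0.423 to 0.437, so the value for number 2 was the highest of all pairs. With the replicate number as a block 4283 genes rose, 2445 fell and 5823 differed in step, and STAY-GREEN (MELO3C005616.2) alone among the named genes lost its call (adjusted p = 0.0574).

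Depth is unknown, so counting error cannot be set apart from spread between libraries, and genes near 0 TPM are read only as low. The spread was larger in WT flesh at 35 DAP (1.15 relative to the pooled SD) than at 25 DAP (0.725), over 11143 genes.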
